A study of Mus musculus with 8 samples.

Results

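The Dlx homeobox genes of the mouse are the 6 genes Dlx1, Dlx2, Dlx3, Dlx4, Dlx5 and Dlx6, and the data are open-chromatin peaks around them in 4 cell populations of the hair follicle. A peak belonged to a Dlx gene when that gene had the protein-coding span nearest to the peak's midpoint, at most 100 kb away on mm10 coordinates, with a distance of 0 inside the gene. By this rule 155 of 266630 peaks belonged to the family, and merging peaks that overlapped by at least 1 bp across the populations gave 61 Dlx sites of 114956 sites in all. The genes lie in pairs: 17 sites belonged to Dlx1/Dlx2 on chromosome 2, 27 to Dlx3/Dlx4 on chromosome 11 and 17 to Dlx5/Dlx6 on chromosome 6.

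Dlx genes encode homeodomain transcription factors related to Distal-less of the fly. The members of a pair are transcribed towards each other, and in the forebrain and the pharyngeal arches enhancers between and around the genes are known to act on both. In the hair follicle Dlx3 is known for its part in hair shaft and inner root sheath formation, where it acts with WNT and BMP signals, and mutations of human DLX3 cause tricho-dento-osseous syndrome, with changed hair, teeth and bone.

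ATAC-seq, in which the Tn5 transposase inserts adapters into accessible DNA, was run on cells sorted from mouse back skin of mixed sex, with 2 samples per population and 8 in all. Bulge stem cells (GFP+, CD34+, integrin α6+ and β1+) and hair germ cells (the same gate, but CD34-) came from Lgr5-eGFP-ires-CreER mice at postnatal day 55, in the second telogen, the resting phase. Basal transit-amplifying cells (TACs) were GFP-, CD34-, SCA1-, P-cadherin+ and high in integrin β1, and came from the same strain at day 30, in anagen, the growth phase. Suprabasal TACs were low in GFP, CD34- and integrin α6-, and came at day 30 from K14-H2BGFP mice, which carry a histone-bound GFP under the keratin 14 promoter. All 4 groups thus carry a GFP allele. In the first strain GFP follows the Lgr5 locus, so Lgr5 expression was part of the gates. Age, hair-cycle phase and cell type change together between the telogen and the TAC groups, and the mouse strain also changes between basal and suprabasal TACs, so these cannot be told apart.

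The authors deposited 1 peak list per population, called on the pooled alignment of both samples. There is therefore no spread between replicates and no test in what follows. Intervals are 95% exact intervals for counting error only, taken at summits that were picked as the highest point of a peak. The bulge list rests on 24065469 fragments, the hair germ list on 11053351, the basal TAC list on 30824845 and the suprabasal TAC list on 47852893. Levels are summit pileups, the number of fragments stacked at the highest point of a site, per 1000000 of these fragments (PPM). A site without a peak in a list is called absent from it, which bounds its level only loosely: the lowest pileup of any peak was 0.416 PPM in bulge, 0.543 in hair germ, 0.389 in basal TACs and 0.313 in suprabasal TACs. At the 31420 sites found in all 4 lists the scaled pileup itself shifted between lists. The median log2 ratio there was 0.02 for hair germ over bulge, -0.55 for basal TAC over hair germ, -0.61 for suprabasal over basal TAC and -1.14 for suprabasal TAC over bulge. Changes are therefore also given relative to this shift. Fewer cells with an open site and a site less open in each cell cannot be told apart in such bulk data.

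The 3 pairs differed in how their sites were spread over the lineage. Dlx3/Dlx4 held 11 sites in bulge, 11 in hair germ, 19 in basal TACs and 23 in suprabasal TACs. Dlx1/Dlx2 held 9 sites in bulge, 10 in hair germ, 14 in basal TACs and 13 in suprabasal TACs. Dlx5/Dlx6 went the other way up to the basal TACs, with 13 sites in bulge, 7 in hair germ and 6 in basal TACs, and then 13 in suprabasal TACs. The lists themselves held 62320 peaks in bulge, 56536 in hair germ, 75637 in basal TACs and 72137 in suprabasal TACs, so some rise towards the TACs is that of the lists. The site counts of the pairs also depend on how far from the genes sites were taken. Within 20 kb Dlx3/Dlx4 held 10 sites in bulge, 10 in hair germ, 12 in basal TACs and 14 in suprabasal TACs, so most of its additional TAC sites lay farther out, and Dlx5/Dlx6 held 5 in bulge, 4 in hair germ, 3 in basal TACs and 5 in suprabasal TACs. Of the 61 Dlx sites, 20 were in all 4 lists (7 of Dlx1/Dlx2, 9 of Dlx3/Dlx4 and 4 of Dlx5/Dlx6), or 32.8% beside 27.3% of all sites. Both TAC lists and neither telogen list held 8 Dlx sites, or 13.1% beside 10.8% of all sites: 5 belonged to Dlx3/Dlx4, 3 to Dlx1/Dlx2 and 0 to Dlx5/Dlx6. A telogen list and neither TAC list held 5 Dlx sites, or 8.20% beside 15.9% of all sites, and 4 of these 5 belonged to Dlx5/Dlx6.

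**Figure D1:**
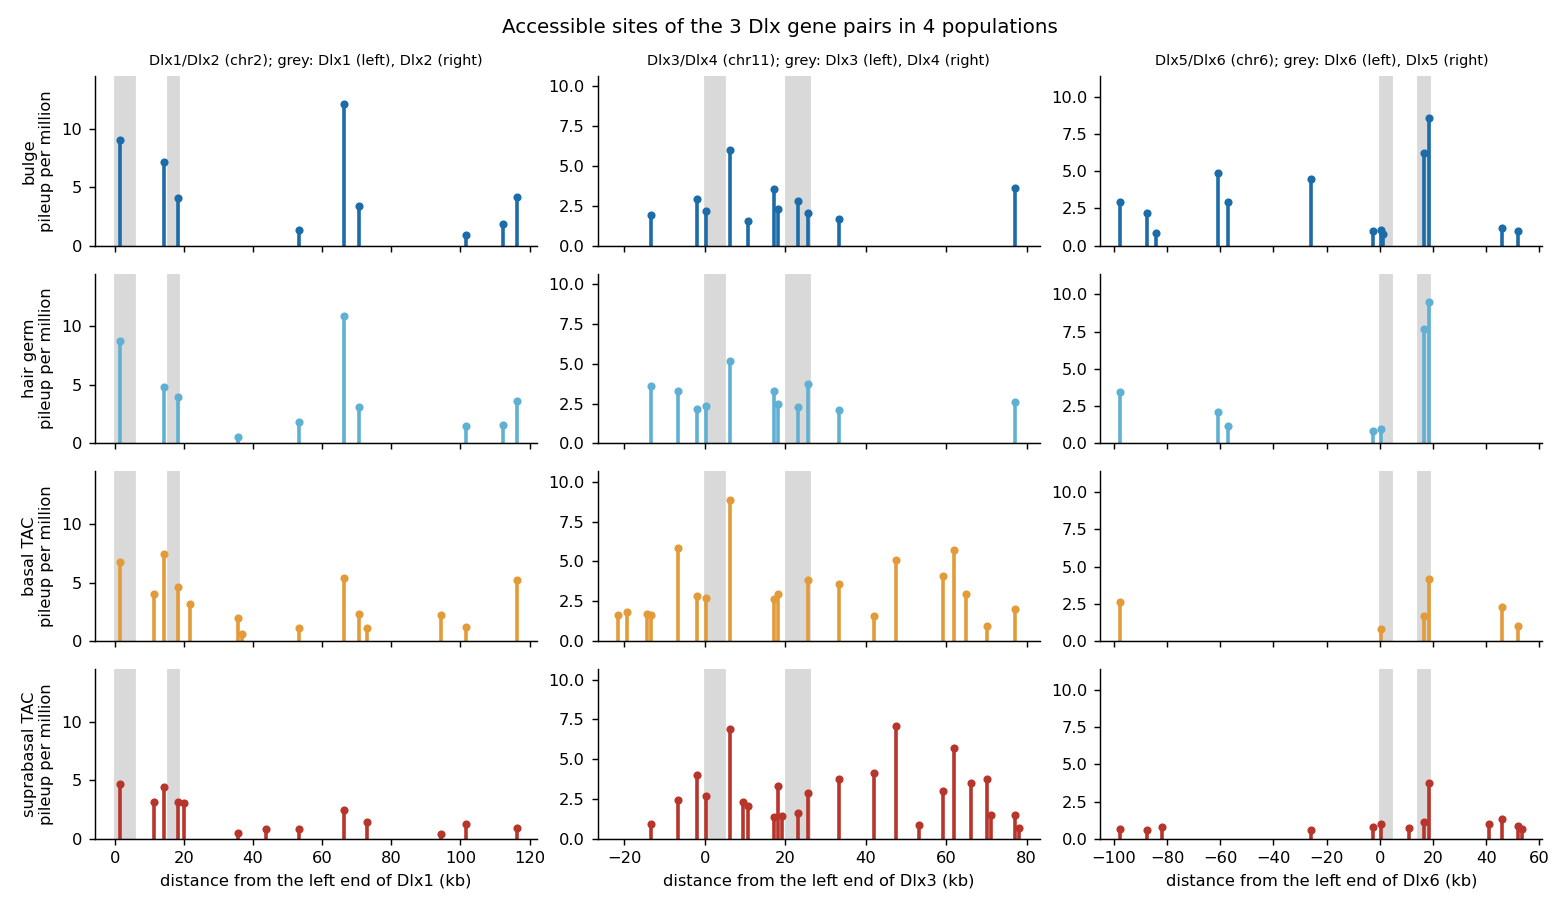
Summit pileup in PPM (vertical axis) of each Dlx site against its distance in kb from the left end of the pair (horizontal axis), with 1 row per population, 1 column per pair and the 2 genes of the pair in grey. Dlx3/Dlx4 gains stems to the right of Dlx4 in both TAC rows, whereas the stems 61.0, 57.0 and 25.9 kb left of Dlx6 are tallest in the bulge row.

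Dlx1 and Dlx2 are known above all for the forebrain, where they direct the making and migration of inhibitory neurons, and for the upper jaw. Dlx1 (chr2:71528113-71533981) and Dlx2 (chr2:71543408-71546754) are 9.43 kb apart. Of their 17 sites 2 lay between the genes, 2 inside them and 13 outside the pair. RefSeq's promoter table (GRCm38.p6, the assembly behind mm10) holds 2 of the 6 members, and both promoters, of 300 bases each, are shown because a peak overlapped each of them in all 4 lists. The Dlx1 promoter is chr2:71529195-71529494 on the plus strand and the Dlx2 promoter chr2:71546705-71547004 on the minus strand, each written 5′ to 3′ on the gene's strand, with the matches to the 7 motifs searched in capitals.
Dlx1: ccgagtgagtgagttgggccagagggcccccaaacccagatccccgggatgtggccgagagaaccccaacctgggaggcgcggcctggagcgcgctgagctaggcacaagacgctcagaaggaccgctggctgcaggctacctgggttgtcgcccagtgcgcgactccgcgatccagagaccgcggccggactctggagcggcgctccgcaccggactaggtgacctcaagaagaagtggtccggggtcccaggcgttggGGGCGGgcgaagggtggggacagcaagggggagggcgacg
Dlx2: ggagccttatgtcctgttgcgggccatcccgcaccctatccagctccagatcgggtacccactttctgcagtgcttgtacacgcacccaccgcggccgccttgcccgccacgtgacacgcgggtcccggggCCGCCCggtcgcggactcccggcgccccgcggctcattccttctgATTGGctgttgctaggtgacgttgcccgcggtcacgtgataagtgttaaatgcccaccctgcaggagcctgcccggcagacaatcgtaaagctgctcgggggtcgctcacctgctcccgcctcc
Both windows are rich in CpG, with 27 in Dlx1 and 29 in Dlx2 against a median of 7 over the 32851 promoters of the table, of which 84.5% and 87.1% held fewer. The G and C content was 69.3% for Dlx1 and 66.3% for Dlx2. On either strand, GGGCGG (GC box, in 35.7% of all promoters) matched once in each, and CCAAT (in 37.4%) matched once in Dlx2. The homeodomain core TAATTA, which 5.29% of the table's promoters hold, is in neither window. The same holds for the TCF/LEF core CTTTGA, held by 16.0% of promoters, and for the AP-1 letters TGANTCA, held by 7.81%. Neither the GATA letters AGATAA (held by 11.2% of promoters) nor the TATA box letters TATAAA (held by 13.6%) were found there. The searched letters do not overlap each other in either promoter.

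The 2 genes' own start regions were open in every population. The site over the start of Dlx1 (chr2:71528142-71531251, which also overlaps the antisense RNA gene Dlx1as) had 9.06 PPM in bulge, 8.78 in hair germ, 6.72 in basal TACs and 4.68 in suprabasal TACs. It was 1.94-fold lower in suprabasal TACs than in bulge (95% interval 1.60 to 2.34), but 1.14-fold higher relative to the sites of all 4 lists. At the start of Dlx2 (chr2:71545441-71547418) the pileup was 4.07 PPM in bulge, 3.98 in hair germ, 4.64 in basal TACs and 3.11 in suprabasal TACs. These intervals overlap for bulge (3.31 to 4.96), hair germ (2.89 to 5.34), basal TACs (3.91 to 5.46) and suprabasal TACs (2.63 to 3.66), except that the suprabasal one ends below the start of the basal one. Taken as a ratio, suprabasal TACs were 1.31-fold below bulge (interval 1.003 to 1.70), but 1.69-fold above it relative to the shift.

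Between the 2 genes, where the pair's shared enhancers lie in other tissues, 1 site was common and 1 belonged to the TACs. The common one (chr2:71541412-71543304, 1.05 kb from Dlx2) had 7.15 PPM in bulge, 4.79 in hair germ, 7.46 in basal TACs and 4.45 in suprabasal TACs, and was named after its values were seen. The other (chr2:71539134-71539870, 3.91 kb from Dlx2) was absent from both telogen lists and had 4.06 PPM in basal TACs and 3.16 in suprabasal TACs. Just beyond Dlx2, chr2:71549651-71550017 was found in basal TACs alone, at 3.15 PPM, and chr2:71547928-71548348 in suprabasal TACs alone, at 3.07. These are the highest sites of the pair held by a single list. No site of the pair was held by the bulge or the hair germ alone.

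The far side of Dlx2 carried some sites that were highest in bulge, beside others that were highest in hair germ or in a TAC list. The highest Dlx site in the bulge list (chr2:71593607-71595205, 47.7 kb from Dlx2 and within the predicted gene Gm36857) had 12.1 PPM in bulge, 10.9 in hair germ, 5.35 in basal TACs and 2.47 in suprabasal TACs. Suprabasal TACs were 4.90-fold below bulge there (interval 3.95 to 6.13), and 2.22-fold below it relative to the shift. The authors' fold enrichment over the local background at the same site was 8.86 in suprabasal TACs against 11.8 in bulge. Its neighbour (chr2:71598335-71599076, 52.0 kb away) had 3.41 PPM in bulge, 3.08 in hair germ and 2.27 in basal TACs and was absent from suprabasal TACs. The outermost site (chr2:71643981-71644746, 97.6 kb away) had 4.16 PPM in bulge, 3.62 in hair germ, 5.22 in basal TACs and 0.919 in suprabasal TACs. The suprabasal value stood farthest from the others. The site was 5.68-fold lower in suprabasal than in basal TACs (interval 4.05 to 8.12), or 3.72-fold relative to the shift. Basal TACs were 1.44-fold above hair germ there (interval 1.015 to 2.095), or 2.11-fold relative to the shift. Against bulge they were 1.26-fold higher, with an interval that includes 1 (0.973 to 1.63). The other 8 sites of the pair lay between 0.397 and 2.24 PPM wherever they were present.

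Dlx3 and Dlx4 showed the most sites in the TACs. Dlx3 (chr11:95120117-95125296) and Dlx4 (chr11:95140447-95146294) are 15.2 kb apart, and of their 27 sites 6 lay between the genes, 3 inside them and 18 outside. Every site the bulge list held was also in the suprabasal list: suprabasal TACs alone had 12 of the 23 sites found in either of these lists, or 52.2%, and bulge alone had 0, where 34.9% of all sites in these lists were in suprabasal TACs alone and 25.5% in bulge alone. At the outer end of Dlx3, the one away from Dlx4 (chr11:95119707-95121086) the pileup was 2.20 PPM in bulge, 2.35 in hair germ, 2.69 in basal TACs and 2.72 in suprabasal TACs. At the outer end of Dlx4 (chr11:95145159-95146520, overlapping the long noncoding RNA gene Dlx4os) it was 2.08 in bulge, 3.71 in hair germ, 3.86 in basal TACs and 2.88 in suprabasal TACs. Suprabasal TACs were 1.23-fold above bulge at the Dlx3 end (interval 0.890 to 1.73) and 1.39-fold at the Dlx4 end (interval 0.998 to 1.96), intervals that both include 1. Relative to the shift of the common sites these were 2.72-fold and 3.06-fold. At the Dlx4 end the other lists stood above bulge by more in PPM, basal TACs by 1.86-fold (interval 1.32 to 2.64), or 2.65-fold relative to the shift, and hair germ by 1.79-fold (interval 1.15 to 2.75).

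The sites that appeared with the TACs lay mostly beyond Dlx4, on the side away from Dlx3. The strongest (chr11:95166972-95168551, 21.5 kb from Dlx4) had no peak in bulge or hair germ and 5.09 PPM in basal TACs (interval 4.33 to 5.96) and 7.08 in suprabasal TACs (interval 6.35 to 7.88). Next to it in height, chr11:95181693-95182618, 35.9 kb away and within the predicted gene Gm11515, had 5.71 PPM in basal TACs and 5.73 in suprabasal TACs. At 33.1 kb, chr11:95178620-95180194 had 4.09 in basal TACs and 3.01 in suprabasal TACs. All 3 were above the median of the sites of all 4 lists, which was 3.11 PPM in basal TACs and 1.88 in suprabasal TACs. They were named for a wide range, which without a telogen peak is their highest TAC pileup. Their place above the median therefore follows in part from that choice.

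Some of the sites beyond Dlx4 differed between the 2 TAC populations. The site at 15.8 kb (chr11:95161488-95162791) had 4.12 PPM in suprabasal TACs and 1.56 in basal TACs, a 2.64-fold difference (interval 1.92 to 3.70), or 4.04-fold relative to the shift. The site at 43.9 kb (chr11:95189694-95190676), named after its values were seen, had 3.76 in suprabasal TACs and 0.941 in basal TACs, a 4.0-fold difference (interval 2.69 to 6.14). By the authors' fold enrichment the differences at both were smaller, 1.79-fold and 1.59-fold. Between them, chr11:95184760-95185097 (38.6 kb away) was held by basal TACs alone at 2.98 PPM, and chr11:95185812-95186939 (40.1 kb away) by suprabasal TACs alone at 3.53. The stretch from 15.8 kb to 44.9 kb beyond Dlx4, marked out after the values were seen, held 9 sites in all, of which 0 were in a telogen list. Over the whole series 68102 of 114956 sites were in a telogen list. The sites next to the stretch, at 7.12 and 50.9 kb, were in all 4 lists, so the 0 follows from where its ends were put.

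On the Dlx3 side the pattern was different. The site 6.67 kb before Dlx3 (chr11:95113204-95113701) was absent from bulge and had 3.26 PPM in hair germ, 5.87 in basal TACs and 2.44 in suprabasal TACs, so it was highest in basal TACs. Suprabasal TACs were 2.40-fold below basal TACs there (interval 1.89 to 3.06), or 1.57-fold relative to the shift. Basal TACs alone also held 3 sites farther out, between 14.3 and 21.6 kb from Dlx3, at 1.62 to 1.82 PPM. The highest site of the pair in any list (chr11:95125593-95127100, 1.05 kb past Dlx3 and between the genes), named after its values were seen, was present throughout, with 5.98 PPM in bulge, 5.16 in hair germ, 8.89 in basal TACs and 6.92 in suprabasal TACs. The remaining sites between the genes ran from 1.40 to 3.53 PPM, and 2 of them were in suprabasal TACs alone.

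**Figure D2:**
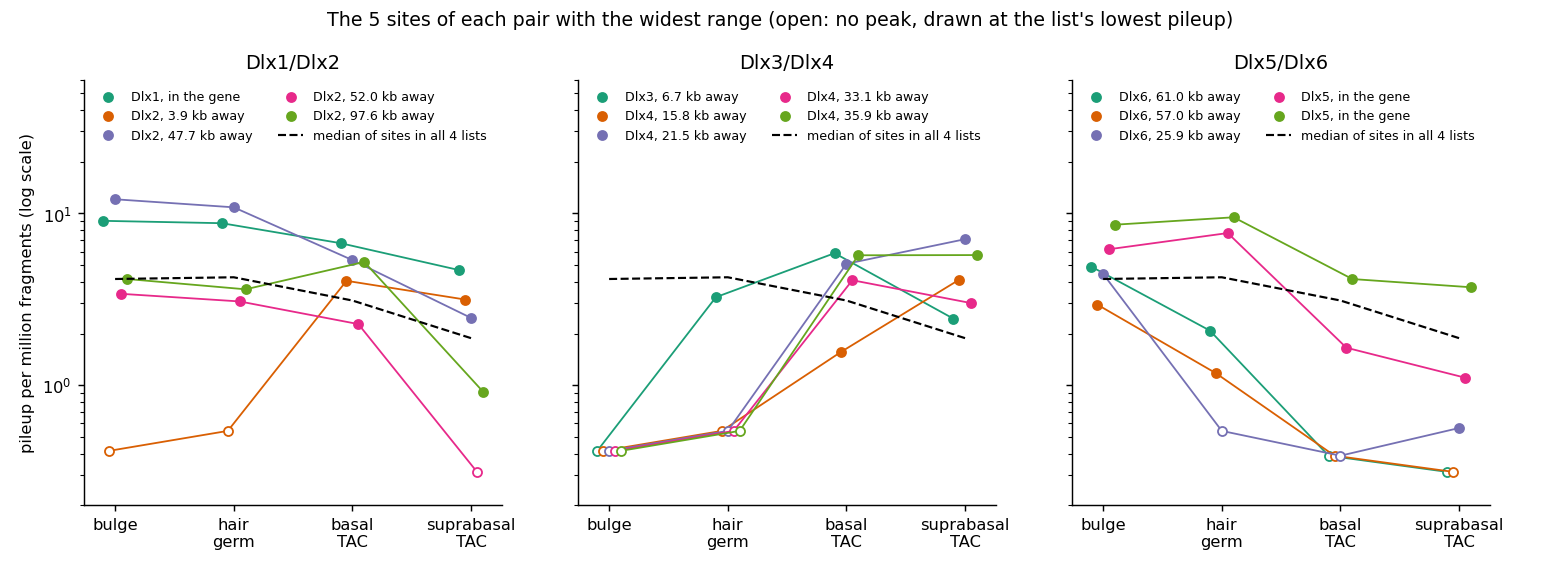
Summit pileup in PPM (log scale) of the 5 sites of each pair with the widest range over the 4 populations, with open points at the lowest pileup of a list where it had no peak and a dashed line for the median of the sites of all 4 lists. The Dlx3/Dlx4 sites beyond Dlx4 have open points (no peak) in bulge and hair germ and filled points in both TAC lists, while each of the 5 Dlx5/Dlx6 sites is lower in suprabasal TACs than in bulge, or has no peak there.

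Dlx5 and Dlx6 are known for bone, limb and jaw development, and the long noncoding RNA gene Dlx6os1 (Evf2) overlaps Dlx6. Dlx6 (chr6:6863334-6867970) and Dlx5 (chr6:6877801-6882068) are 9.83 kb apart. Of their 17 sites 1 lay between the genes, 4 inside them and 12 outside. Inside Dlx5 the pair had its 2 highest sites. At the gene's end away from Dlx6 (chr6:6880879-6882593) the pileup was 8.60 PPM in bulge, 9.50 in hair germ, 4.15 in basal TACs and 3.72 in suprabasal TACs. That is 2.29-fold lower in basal TACs than in hair germ (interval 1.75 to 2.98), or 1.57-fold relative to the shift, while suprabasal TACs were 2.31-fold below bulge, or 1.05-fold relative to the shift. By the authors' fold enrichment this end site was instead highest in basal TACs, at 9.01 against 7.66 in hair germ, 7.84 in bulge and 6.96 in suprabasal TACs. The site further inside the gene (chr6:6879446-6880689) had 6.19 in bulge, 7.69 in hair germ, 1.65 in basal TACs and 1.11 in suprabasal TACs. In PPM both TAC values lay below both telogen values at each of these sites. At the inner one basal TACs were 4.65-fold below hair germ (interval 3.25 to 6.71), or 3.18-fold relative to the shift. The difference in the authors' fold enrichment there was smaller, with 3.83 in basal TACs against 6.29 in hair germ.

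Dlx6 had a low site at its outer end in every list and its higher sites far away. The end site (chr6:6863416-6863968) had 1.08 PPM in bulge, 0.995 in hair germ, 0.779 in basal TACs and 1.02 in suprabasal TACs, on 11 to 49 fragments. These intervals overlap, although relative to the shift suprabasal TACs were 2.09-fold above bulge. Away from the gene, chr6:6801690-6802922 (61.0 kb) had 4.90 PPM in bulge and 2.08 in hair germ, and chr6:6806149-6806507 (57.0 kb) had 2.95 in bulge and 1.18 in hair germ. Both were absent from both TAC lists. Hair germ was 2.36-fold below bulge at the first (interval 1.498 to 3.86) and 2.51-fold at the other (interval 1.38 to 4.94), where hair germ rested on 13 fragments.

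The clearest bulge site of Dlx6 was chr6:6837003-6837856, 25.9 kb from the gene and within Dlx6os1. It had 4.45 PPM in bulge and 0.564 in suprabasal TACs, and was absent from hair germ and basal TACs. Suprabasal TACs were 7.88-fold below bulge (interval 5.13 to 12.5), or 3.57-fold relative to the shift. Bulge alone held 2 sites of the pair, the higher at 0.873 PPM (chr6:6779076-6779364), and suprabasal TACs alone held 4, the highest at 0.982 (chr6:6903964-6904970). The 13 sites of the pair in suprabasal TACs were mostly low: 12 of them lay between 0.564 and 1.34 PPM. Their median was 0.794 in suprabasal TACs, against 2.20 in bulge, a difference that lies largely within that of the lists themselves, whose median over all peaks was 1.04 in suprabasal TACs and 2.29 in bulge. Hair germ alone and basal TACs alone held 0 sites of this pair.

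Summed over the sites of a gene, the pileup follows these patterns, but such a sum also grows with the number of sites at which a list has a peak. Dlx4 summed to 16.0 PPM in bulge, 16.4 in hair germ, 35.5 in basal TACs and 46.3 in suprabasal TACs, over peaks covering 4482 bp in bulge, 4020 bp in hair germ, 9087 bp in basal TACs and 13019 bp in suprabasal TACs. Its median per site changed little, at 2.56 in bulge, 2.53 in hair germ, 2.98 in basal TACs and 2.95 in suprabasal TACs. Dlx3 summed to 14.5 in bulge, 16.6 in hair germ, 27.1 in basal TACs and 21.4 in suprabasal TACs, so that basal TACs stood above suprabasal TACs, an order that turned round once the lists were scaled to their common sites (38.7 in basal TACs and 47.2 in suprabasal TACs).

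For Dlx2 the sums were 34.9 in bulge, 31.7 in hair germ, 40.4 in basal TACs and 22.4 in suprabasal TACs, and scaling turned suprabasal TACs from below to above bulge, at 49.5 against 34.9. Dlx1 has the 1 site given above. Dlx5 summed to 17.0 in bulge, 17.2 in hair germ, 9.12 in basal TACs and 9.45 in suprabasal TACs, and after scaling suprabasal TACs were above bulge here too, at 20.8 against 17.0. Dlx6 summed to 21.2 in bulge, 8.50 in hair germ, 3.37 in basal TACs and 4.39 in suprabasal TACs, over 6021 bp in bulge, 2269 bp in hair germ, 729 bp in basal TACs and 3809 bp in suprabasal TACs. Bulge stayed highest after scaling, with 9.68 in suprabasal TACs against 21.2 in bulge. With sites within 20 kb only, Dlx4 summed to 12.4 in bulge, 13.8 in hair germ, 14.6 in basal TACs and 18.6 in suprabasal TACs, and Dlx6 to 2.87 in bulge, 1.81 in hair germ, 0.779 in basal TACs and 1.82 in suprabasal TACs. On both scales the sums of Dlx3 and Dlx4 over 100 kb were higher in both TAC lists than in both telogen lists, and that of Dlx6 was highest in bulge.

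**Figure D3:**
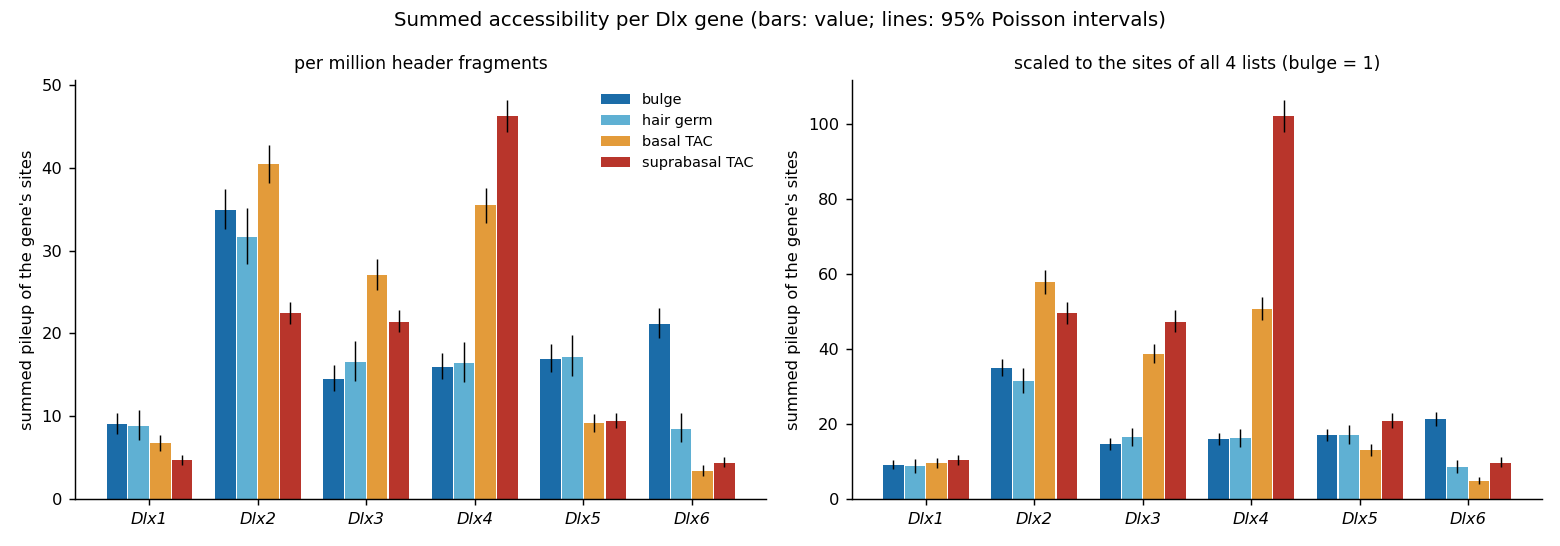
Summed summit pileup of each Dlx gene's sites by population, in PPM (left) and scaled so that the sites of all 4 lists have the same median as in bulge (right), with 95% Poisson intervals as lines. Dlx4 is highest in suprabasal TACs on both scales (46.3 and 102.0) and Dlx6 is highest in bulge on both (21.2).

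Hair germ against bulge asks what changes within telogen as cells are primed to leave rest. In the lists for hair germ and bulge, 35 Dlx sites were found in at least 1. Hair germ alone held 2 of them (9.92% of all sites in these lists were of that kind), and bulge alone held 7 (19.7% of all sites). Of those 7, 6 belonged to Dlx5/Dlx6, which is 6 of the 13 sites of that pair. The hair germ list rests on the fewest fragments, and when a site counted as missing only if its pileup at hair germ depth would have reached the lowest 5% of hair germ peaks, bulge alone still held 5 of the Dlx5/Dlx6 sites. At the 26 shared Dlx sites 0 were at least 2-fold higher in hair germ (5.79% of all shared sites were) and 2 were at least 2-fold lower (5.14%), both of them the Dlx6 sites at 61.0 and 57.0 kb.

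Basal TAC against hair germ sets anagen progenitors beside telogen ones. Among 44 Dlx sites, basal TACs alone held 16 (38.0% of all sites) and hair germ alone held 5 (15.2%). By pair, basal TACs alone held 9 of 20 sites of Dlx3/Dlx4, 5 of 15 of Dlx1/Dlx2 and 2 of 9 of Dlx5/Dlx6, and hair germ alone held 1 of Dlx3/Dlx4, 1 of Dlx1/Dlx2 and 3 of Dlx5/Dlx6. At 23 shared sites 1 was at least 2-fold higher in basal TACs (7.75% of all) and 4 were at least 2-fold lower (24.1%). Relative to the shift the split turned, with 6 higher (16.2%) and 1 lower (9.31%), the last being the inner Dlx5 site. The median log2 ratio at shared sites was 0.23 for Dlx3/Dlx4, -0.31 for Dlx1/Dlx2 and -0.80 for Dlx5/Dlx6, beside -0.50 for all shared sites.

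Suprabasal against basal TAC compares cells within the anagen matrix. Among 56 Dlx sites, suprabasal TACs alone held 17 (22.7% of all sites) and basal TACs alone held 7 (27.4%). Suprabasal TACs alone held 7 of 13 sites of Dlx5/Dlx6, 8 of 27 of Dlx3/Dlx4 and 2 of 16 of Dlx1/Dlx2, and basal TACs alone held 0 of Dlx5/Dlx6, 4 of Dlx3/Dlx4 and 3 of Dlx1/Dlx2. At 32 shared sites 2 were at least 2-fold higher in suprabasal TACs (3.75% of all), both beyond Dlx4, and 6 were at least 2-fold lower (27.5%), of which 4 belonged to Dlx1/Dlx2. Relative to the shift 5 were higher (11.1%) and 4 lower (12.5%), and 4 of the 5 higher ones belonged to Dlx3/Dlx4. The median log2 ratio was 0.00 for Dlx3/Dlx4, -0.58 for Dlx1/Dlx2 and -0.43 for Dlx5/Dlx6, beside -0.57 for all shared sites.

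Suprabasal TAC against bulge spans the sampled lineage. Among 55 Dlx sites, suprabasal TACs alone held 22 (34.9% of all sites) and bulge alone held 6 (25.5%). Of the 22, 12 belonged to Dlx3/Dlx4, 6 to Dlx1/Dlx2 and 4 to Dlx5/Dlx6, and of the 6 in bulge, 2 belonged to Dlx1/Dlx2 and 4 to Dlx5/Dlx6. At 27 shared sites 1 was at least 2-fold higher in suprabasal TACs (4.54% of all), the site 7.12 kb past Dlx4, and 10 were at least 2-fold lower (52.8%). Relative to the shift 10 were higher (19.2%) and 5 lower (13.3%), and Dlx3/Dlx4 had 7 of the 10 higher and 0 of the 5 lower. The median log2 ratio was 0.30 for Dlx3/Dlx4, -0.71 for Dlx1/Dlx2 and -1.21 for Dlx5/Dlx6, beside -1.07 for all shared sites. The 4 comparisons share lists with each other, so their counts are not independent.

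**Figure D4:**
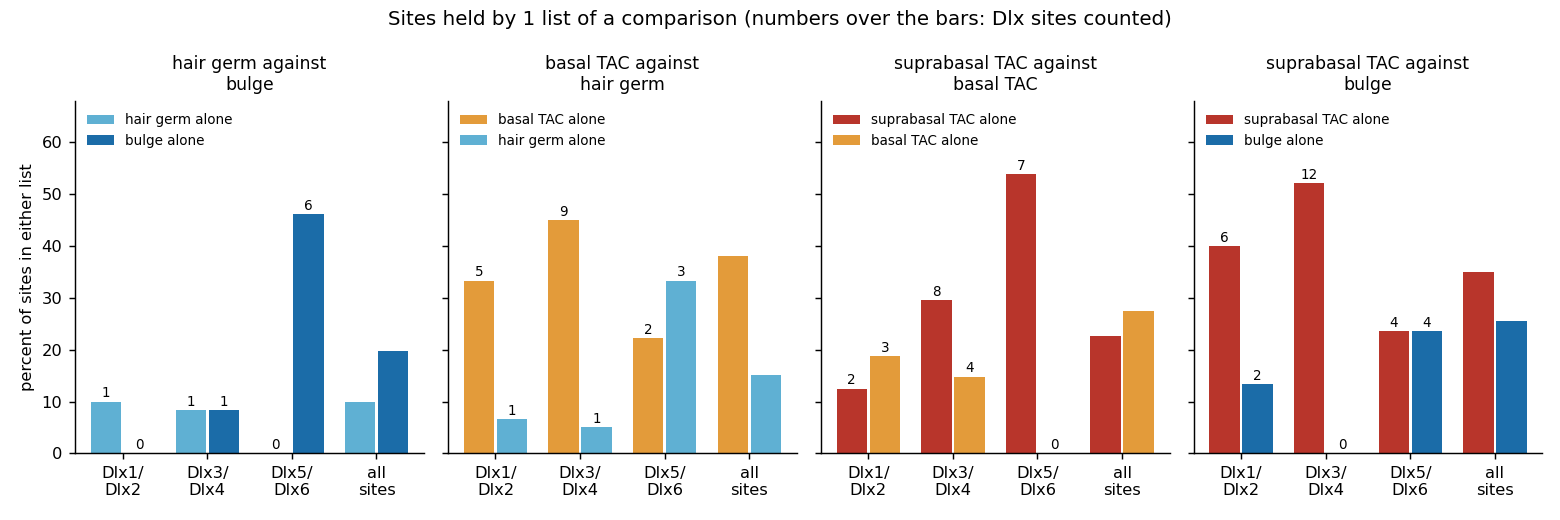
Share of sites in either list of a comparison that only 1 of the lists held, in percent, for each Dlx pair and for all sites, with the number of Dlx sites over each bar. Suprabasal TACs alone held 12 of 23 Dlx3/Dlx4 sites where bulge alone held 0, and bulge alone held 6 of 13 Dlx5/Dlx6 sites where hair germ alone held 0.

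The neighbouring genes did not all move with the pairs. Before Dlx3, Itga3, which encodes an integrin chain of basal epithelial cells, had 5 sites in bulge, 5 in hair germ, 7 in basal TACs and 5 in suprabasal TACs, and its summed pileup was 42.1 PPM in bulge, 40.6 in hair germ, 23.6 in basal TACs and 7.54 in suprabasal TACs. Its course was opposite to that of Dlx3/Dlx4. Past Dlx4, Tac4, which encodes tachykinin peptides, had 7 sites in bulge, 7 in hair germ, 9 in basal TACs and 13 in suprabasal TACs, and like Dlx4 had more sites in the TACs. Its sum was 23.2 PPM in bulge, 23.1 in hair germ, 38.0 in basal TACs and 29.2 in suprabasal TACs. Kat7, a histone acetyltransferase gene farther on, had 4 sites in each list but suprabasal TACs, where it had 3. Beside Dlx1, Metap1d had 2 sites in bulge, 3 in hair germ, 5 in basal TACs and 6 in suprabasal TACs. Beyond Dlx2, Itga6, the gene of the sorted integrin α6, had 17 sites in bulge, 14 in hair germ, 12 in basal TACs and 13 in suprabasal TACs. On either side of Dlx5/Dlx6, Sem1 had 9 sites in basal TACs and 6 in bulge, and Sdhaf3 had 3 in basal TACs and 1 in bulge, where the pair itself had fewer sites in basal TACs. Before scaling, the summed pileup of both neighbours was nevertheless lower in basal TACs, as it was for Dlx5 and Dlx6: Sem1 had 15.4 PPM in basal TACs and 25.8 in bulge, and Sdhaf3 had 11.1 in basal TACs and 12.5 in bulge. The median ratio of basal TAC over bulge at the sites of all 4 lists was 0.700. The fall of Sdhaf3 was smaller than that, but the fall of Sem1 was larger. After scaling, Dlx5 (13.0 in basal TACs against 17.0 in bulge) and Dlx6 (4.82 against 21.2) stayed below bulge. Sem1 stayed below it too, so staying below bulge did not set the pair apart from both neighbours.

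A list of 14 other genes of the hair programme was set beside the Dlx genes. These genes were chosen for their known roles, but with earlier results of these data known, so the list is no independent support. Suprabasal TACs had more sites than bulge in 11 of the 14 genes, fewer in 2 (Wnt10b, a WNT ligand, and the BMP receptor gene Bmpr1a) and the same number in 1 (Prdm1). Of the 226 sites of the list found in suprabasal TACs or bulge, 47.8% were in suprabasal TACs alone and 11.9% in bulge alone, beside 34.9% of all sites in suprabasal TACs alone and 25.5% in bulge alone. The BMP ligand gene Bmp4 had 11 sites in suprabasal TACs and 5 in bulge, and Bmp2 had 10 in suprabasal TACs and 8 in bulge, although its summed pileup was lower in suprabasal TACs, at 7.29 PPM against 20.1 in bulge. Among transcription factor genes, Lef1, which acts with β-catenin in WNT signalling, had 27 in suprabasal TACs and 5 in bulge. Hoxc13, a regulator of hair keratins, had 19 in suprabasal TACs and 5 in bulge, and Foxn1, which drives hair shaft differentiation, had 7 in suprabasal TACs and 3 in bulge. The homeobox genes of the Msx family went the same way, Msx1 with 14 in suprabasal TACs and 4 in bulge and Msx2 with 16 in suprabasal TACs and 10 in bulge. Dlx3/Dlx4 had 23 sites in suprabasal TACs and 11 in bulge. At its 91 shared sites the list's median log2 ratio of suprabasal TAC over bulge was -0.44, beside 0.30 for Dlx3/Dlx4 and -1.07 for all shared sites.

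Genes whose summed pileup ran most like that of each member were picked among 6653 genes with at least 5 sites, by the Euclidean distance of centred log2(sum + 1) over the 4 lists, a smaller value meaning a closer course. For Dlx3 the nearest was Tbc1d7, at 0.027, followed by Mgat5 and Dnah9, and 36 genes lay within 0.2. Dlx2 had Stag1 nearest, at 0.047, then Nptn and Lrpap1, with 118 genes within 0.2, and Dlx5 had Scarf2, at 0.027, then Dnajc12 and Cd247, with 100. Dlx4 and Dlx6 had 0 genes within 0.2: the nearest were Prom1 (0.236), Otx2 and Xrra1 for Dlx4, and Olfr1402 (0.293), Degs2 and Cadps for Dlx6. Dlx1, with 1 site, was not ranked.

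The gates were checked against sites of marker genes, which show accessibility and not expression. All 5 bulge markers (Cd34, Lgr5, Nfatc1, Sox9 and Lhx2) had sites in every list, and their summed pileup was 392 PPM in bulge, 308 in hair germ, 154 in basal TACs and 78.3 in suprabasal TACs. The 4 matrix markers (Lef1, Msx2, Hoxc13 and Shh) summed to 80.9 in bulge, 104 in hair germ, 112 in basal TACs and 141 in suprabasal TACs. The bulge marker sum was thus highest in the bulge list and the matrix marker sum in the suprabasal TAC list. Singly, Lhx2 was instead highest in hair germ, at 70.2 PPM against 68.6 in bulge. Msx2 was also highest in hair germ, at 52.7 PPM against 48.3 in suprabasal TACs. CD34 and the GFP of the Lgr5 locus were part of the gates, so Cd34 and Lgr5 are no independent check of them. The hair germ markers Cdh3 and Lgr5, of which Lgr5 is also among the bulge markers, did not set the hair germ list apart, with 151 PPM in bulge, 137 in hair germ, 91.5 in basal TACs and 40.7 in suprabasal TACs. The 4 inner root sheath markers (Gata3, Krt27, Krt71 and Tgm3) summed to 82.4 in bulge, 64.1 in hair germ, 54.6 in basal TACs and 65.4 in suprabasal TACs. In PPM they were thus also highest in bulge, where Gata3 made up 65.4 of the sum and Krt27 had no site. Of other cell types, 3 of 4 melanocyte markers had sites in every list, summing to 98.8 in bulge, 71.0 in hair germ, 52.6 in basal TACs and 43.6 in suprabasal TACs, while Tyr had none anywhere. Mitf carried that fall, with 16.9 PPM in suprabasal TACs against 85.4 in bulge, whereas Dct ran the other way, with 23.4 in suprabasal TACs against 8.81 in bulge. All 5 dermal markers had sites in every list, at 45.9 in bulge, 28.9 in hair germ, 26.9 in basal TACs and 26.3 in suprabasal TACs. The 4 endothelial markers summed to 89.6 in bulge, 92.7 in hair germ, 69.1 in basal TACs and 25.1 in suprabasal TACs, with Tek and Emcn at no site in suprabasal TACs. Of 3 immune markers 1 had sites in both telogen lists and 3 in both TAC lists, at 6.03 in bulge, 10.7 in hair germ, 19.7 in basal TACs and 14.1 in suprabasal TACs, with Cd3e and Cd74 at no site in telogen. These marker sums were not scaled to the sites of all 4 lists, where the median ratio of suprabasal TAC over bulge was 0.453. From bulge to suprabasal TACs the inner root sheath, melanocyte and dermal sums fell by about that shift or less. The bulge, hair germ and endothelial sums fell by more. The part of cells of other types in the Dlx results was not tested.

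At the 100 kb limit, the outermost peaks of Dlx1/Dlx2 lay 97.5 kb from Dlx2 in suprabasal TACs (0.919 PPM) and 97.6 kb in basal TACs (5.22), and the first ones outside lay at 101.2 kb in suprabasal TACs (0.731) and 101.7 kb in basal TACs (1.78). For Dlx5/Dlx6 the outermost lay 97.5 kb from Dlx6 in hair germ (3.44) and suprabasal TACs (0.627), and the first outside at 103.0 kb in bulge (2.62) and hair germ (2.80). Dlx3/Dlx4 was bounded by its neighbours, with the outermost peak 52.0 kb from Dlx4.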

How the data were processed

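ATAC-seq peaks of 4 hair follicle populations were read from 1 deposited list per population. Per the submitters' processing notes, reads were aligned to mm10 with Bowtie2 2.2.9, and Picard and MACS2 were used. The authors' caller was, per the file headers, MACS 2.1.1.20160309, run on a pooled alignment per population without a control sample, with a q-value cutoff of 0.05, a local background window of 10 kb and an effective genome size of 1.87e+09, keeping duplicates at that step. A shift of the reads for the Tn5 cut is not given in these sources. Each deposited peak carries the authors' summit pileup (a signal, in fragments), its fold enrichment over the local background (a ratio), and −log10 p-values and −log10 q-values. In the deposited lists the −log10 column names were damaged, and the columns were told apart by their position.

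From these files the peaks on chromosomes M and Y were left out, leaving 62320 of 62333 peaks for bulge, 56536 of 56548 for hair germ, 75637 of 75652 for basal TACs and 72137 of 72153 for suprabasal TACs. Each peak was placed at the nearest of 21900 protein-coding spans of the RefSeq gene table (GRCm38.p6, matched to mm10 coordinates), and inside several spans at the shortest. Peaks overlapping by 1 bp were merged into sites, and a site's level in a list was its highest pileup per 1000000 header fragments. Intervals at the 95% level are exact Poisson intervals for levels and exact binomial intervals for ratios. Sequences are RefSeq promoter windows. No genome sequence was used.

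The members, the marker list and the list of 14 other genes were chosen with earlier results of these data known. Sites were named singly by a fixed rule: sites overlapping a member within 1 kb of an end of its span, the 5 sites per pair with the widest range of levels (an absent site counted as 0), and per pair and list the highest site held by that list alone, which gave 25 sites. Others named are said to be chosen after their values were seen. For genes of like course, 1 was added to each sum before taking log2. The alternatives tried were a −log10 q-value of at least 10, a limit of 20 kb, placing peaks by summit, sharing by 50 percent of the shorter peak, equal numbers of peaks, absence scaled for depth, scaling to the sites of all 4 lists, fold enrichment, a 1.5-fold threshold and the mean pileup of a site. The merging step was tested on real peaks, the distances of the placing step at random positions, and the 2-fold calls on simulated counts. Python 3.11.15, pandas 2.3.3, numpy 2.4.6, scipy 1.17.1, matplotlib 3.10.9 and bedtools 2.31.1 were used.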

Additional observations from a re-analysis of the deposited data

How the results depend on the processing

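No paired analysis was possible because each population has 1 pooled peak list, and for the same reason no replicate was left out. Depth limits absence: the hair germ list, the shallowest, has the highest floor. Placing peaks by summit, sharing by 50 percent of the shorter peak and the mean pileup of a site moved no count by over 1.5 times and turned no direction. Counts below are over all 6 genes, with the reported value after "against".

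Sites per pair and list moved by over 1.5 times in 10 of 12 cases within 20 kb and in 2 of 12 under a −log10 q-value limit of 10, where Dlx3/Dlx4 held 7 sites against 11 in hair germ and Dlx5/Dlx6 held 4 against 7 in hair germ. Summed pileup left its counting interval in 15 of 24 cases within 20 kb, 11 of 24 under the q-value limit and 12 of 24 when scaled to the sites of all 4 lists.

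Sites held by 1 list: with only peaks at a −log10 q-value of 10 or more, hair germ alone of bulge held 1 against 2, bulge alone of hair germ 11 against 7, and hair germ alone of basal TACs 1 against 5. The difference between the 2 counts turned round for Dlx1/Dlx2 in hair germ against bulge (-2 against 1) and for Dlx5/Dlx6 in basal TAC against hair germ (1 against -1). With absence scaled for depth, hair germ alone of bulge held 1 against 2. Within 20 kb the counts were 2 against 7 for bulge alone of hair germ, 6 against 16 for basal TACs alone and 2 against 5 for hair germ alone of each other, 7 against 17 for suprabasal TACs alone and 4 against 7 for basal TACs alone of each other, and 8 against 22 for suprabasal TACs alone and 1 against 6 for bulge alone of each other. That limit leaves fewer sites to count.

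Sites past 2-fold: scaled to the sites of all 4 lists, basal TAC against hair germ had 6 higher against 1 and 1 lower against 4, suprabasal against basal TAC 5 higher against 2, and suprabasal TAC against bulge 10 higher against 1 and 5 lower against 10. The difference of higher and lower counts then turned from negative to 5 for basal TAC over hair germ, 1 for suprabasal over basal TAC and 5 for suprabasal TAC over bulge. For Dlx3/Dlx4 alone it turned to 3 against -1 for basal TAC over hair germ and 7 against -2 for suprabasal TAC over bulge.

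At 1.5-fold, hair germ against bulge had 3 higher against 0 and a difference of 1 against -2, basal TAC against hair germ 5 higher against 1 (for Dlx3/Dlx4 a difference of 2 against -1), and suprabasal against basal TAC 10 lower against 6. By fold enrichment, hair germ against bulge had 0 lower against 2, basal TAC against hair germ 1 lower against 4, suprabasal against basal TAC 0 higher against 2 and suprabasal TAC against bulge 0 higher against 1. Under the q-value limit, these were 1 lower against 2 for hair germ over bulge, 0 higher against 1 for basal TAC over hair germ and 0 higher against 2 for suprabasal over basal TAC, which also had 0 with equal numbers of peaks. Within 20 kb, hair germ against bulge had 0 lower against 2, suprabasal against basal TAC 1 higher against 2 and 2 lower against 6, and suprabasal TAC against bulge 4 lower against 10. The Dlx3/Dlx4 difference for suprabasal over basal TAC was 1 as reported, and -1 with the stricter q-value, -1 with equal numbers of peaks, -1 at 1.5-fold and -2 by fold enrichment. The cause of these changes was not tested.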
